A study of Mus musculus with 4 samples.

Results

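Interferon-stimulated genes were followed in the colon of germ-free mice as 39 genes, named by symbol, of the 24016 genes in the deposited table. All 39 symbols were found, each listed with a single genomic copy, and 38 of them had a mean level of at least 1 CPM (counts scaled to library size) over the libraries, as did 14450 genes in all. The gene below that level was Mx2. Total RNA of colon pieces was sequenced in 4 libraries, 1 per condition, from germ-free C57BL/6 mice aged 7 weeks. The conditions were gavage with the probiotic Lactobacillus rhamnosus GG (LGG), gavage with Escherichia coli, gavage with phosphate-buffered saline (PBS), and no treatment. The labels give the same dose for both bacteria. Gavaged mice, 4 per group according to the labels, gave colon pieces of 4 cm taken 4 h after gavage. The labels do not state if mice were pooled within a library, and the untreated mice did not have the gavage itself. All conditions share the germ-free state.

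The libraries held 29899371 (LGG), 29368008 (E. coli), 16289580.0 (PBS) and 27220697 (untreated) counts on genes, so that an undetected gene could have had up to 0.103, 0.103, 0.187 and 0.105 CPM in that order (a floor of 3 counts). Epithelial markers such as Epcam and Krt8 summed to 29142 (LGG), 25703 (E. coli), 26329 (PBS) and 26633 CPM (untreated), and none of the 9 was at 0. Muc2 carried the largest part of these sums and was lower in each gavaged library than in the untreated one, at log2 ratios of -0.11 (LGG), -0.36 (E. coli) and -0.34 (PBS), as was Car1 in E. coli (-0.24) and PBS (-0.12). Epcam, at 0.25, 0.17 and 0.16, and Krt8, at 0.30, 0.19 and 0.25 in that order, were higher. With 1 library per condition no difference has a replicate check and no test was possible. Each interval below is a 95% counting interval, and it describes these libraries rather than the conditions. In a bulk sample, fewer cells of a type and less RNA per cell cannot be told apart.

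Interferons are secreted proteins that signal through surface receptors and JAK kinases. Type I and type III interferons lead to a complex containing STAT2 and IRF9 that binds the interferon-stimulated response element (ISRE), while interferon gamma acts through the gamma-activated site (GAS). The induced genes encode sensors of viral nucleic acid, enzymes that block viral replication, GTPases that attack pathogen vacuoles, and parts of the antigen presentation machinery. In the intestine, part of this programme is known to run at a low level without infection.

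Promoter windows of 300 bases, 250 before and 50 from the annotated start, were found in the RefSeq table (build GRCm38.p6) for 29 of the 39 genes, with 34 starts. The ISRE core was searched on both strands as GAAA, any 2 bases and GAAA again, which reads TTTC, any 2 bases and TTTC on the other strand, and the GAS core as TTCNNNGAA, which is its own reverse complement. Of the 29 genes, 18 (62.1%) held an ISRE core, against 1079 of the 27025 genes in the table (3.99%) and 403 of the 10807 genes with a mean of at least 1 CPM (3.73%). A GAS core stood in 8 of the 29 (27.6%), against 9.55% of all genes and 8.36% of those with a mean of at least 1 CPM. The ISRE and GAS cores overlapped in Bst2. A match is a description of letters and not a site of binding. The 250 bases before the start of 3 genes are printed because they had the highest ratios among the genes with a promoter in the table, with ISRE cores in capitals. Isg15 lies at chr4:156200819-156201068 on the minus strand, Ifit3 at chr19:34583279-34583528 on the plus strand and Oas1g at chr5:120887614-120887863 on the minus strand.
Isg15: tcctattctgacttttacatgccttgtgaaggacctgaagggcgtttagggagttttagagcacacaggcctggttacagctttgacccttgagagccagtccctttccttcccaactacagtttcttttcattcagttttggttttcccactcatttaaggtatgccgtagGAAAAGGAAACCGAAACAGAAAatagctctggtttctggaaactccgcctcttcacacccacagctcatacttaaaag
Ifit3: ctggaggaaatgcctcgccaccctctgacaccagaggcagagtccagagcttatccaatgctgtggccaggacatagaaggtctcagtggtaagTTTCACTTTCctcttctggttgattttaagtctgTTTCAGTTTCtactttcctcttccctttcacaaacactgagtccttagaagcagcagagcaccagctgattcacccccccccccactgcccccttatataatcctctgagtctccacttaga
Oas1g: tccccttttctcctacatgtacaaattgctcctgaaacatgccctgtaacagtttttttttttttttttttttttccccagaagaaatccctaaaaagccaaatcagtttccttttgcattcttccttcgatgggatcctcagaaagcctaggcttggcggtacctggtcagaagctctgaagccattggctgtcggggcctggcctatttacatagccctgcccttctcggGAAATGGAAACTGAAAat
In Isg15 the 3 cores overlap each other to make a single run at positions -78 to -57 from the start, in Ifit3 the 2 cores stand apart, and in Oas1g the 2 cores overlap and end at position -3.

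Windows of 30 bases around a core were compared only between Oas1a and Oas1g and between Igtp and Irgm2, again with ISRE cores in capitals. Other related genes, such as Irgm1 and Irgm2, were not compared. Oas1a (chr5:120907526-120907555, minus strand) is identical to Oas1g (chr5:120887612-120887641, minus strand) at 30 of 30 bases, and Igtp (chr11:58199512-58199541, plus strand) to Irgm2 (chr11:58214903-58214932, plus strand) at 29 of 30. Rsad2 (chr12:26456553-26456582, minus strand), Gbp3 (chr3:142559989-142560018, plus strand), Bst2 (chr8:71537583-71537612, minus strand) and Irgm1 (chr11:48871431-48871460, minus strand) are given for the results below.
Oas1a: cccttctcggGAAATGGAAACTGAAAatct
Oas1g: cccttctcggGAAATGGAAACTGAAAatct
Rsad2: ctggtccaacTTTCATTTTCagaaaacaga
Bst2: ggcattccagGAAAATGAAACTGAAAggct
Gbp3: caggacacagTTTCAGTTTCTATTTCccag
Irgm1: cctgtttcaaGAAATAGAAACCGAAActga
Igtp: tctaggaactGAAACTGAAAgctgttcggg
Irgm2: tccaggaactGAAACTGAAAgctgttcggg

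**Figure D1:**
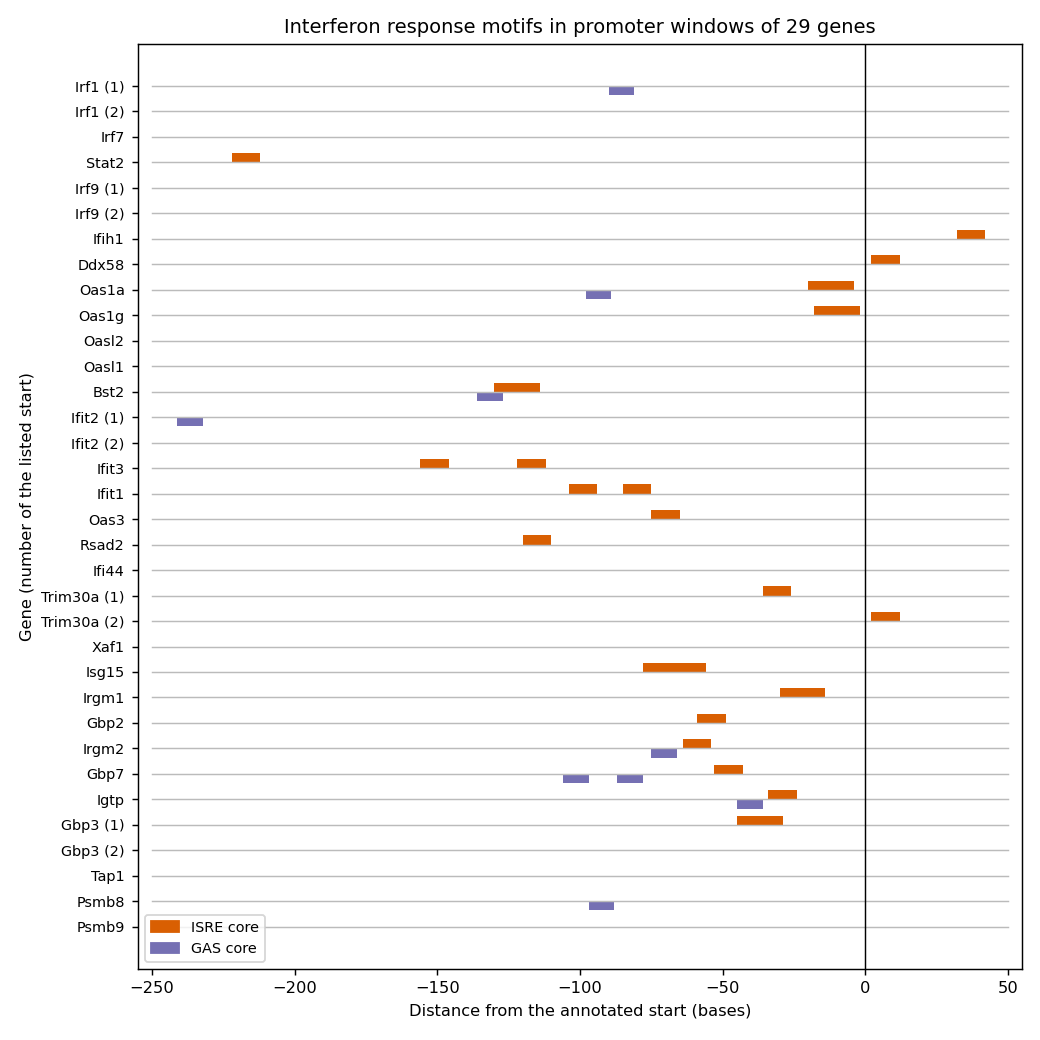
Matches to the ISRE core (orange) and the GAS core (purple) in 34 promoter windows of 29 genes, by distance from the annotated start in bases; a number after a gene is its listed start. Most ISRE matches lie shortly before the start, Stat2 has one far upstream, Ifih1 and Ddx58 have theirs after the start, and the windows of genes such as Irf7, Irf9, Tap1 and Psmb9 have no match to either core.

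All 39 genes had counts in every library. Per kilobase of transcript, Irf1 had the highest mean level over the libraries (60.6 CPM per kb), followed by Irf7 (47.1), Oas1a (22.0), Bst2 (20.2) and Irgm1 (17.2). Mx2 had the lowest (0.362 CPM per kb), with 24 (LGG), 25 (E. coli), 12 (PBS) and 30 counts (untreated), followed by Ifi44 (0.694) and Gbp6 (0.767). The summed level of the 39 genes was 904 (LGG), 868 (E. coli), 918 (PBS) and 800.0 CPM (untreated). The untreated sum was thus the lowest and the PBS and LGG sums the highest. The highest library exceeded the lowest by a median of 1.35-fold over the 38 genes, against 1.19-fold over all genes. Counting error alone widens this ratio at low counts, and these sets were not matched for level. Among the 38, Parp14 at 1.08-fold and Ifit3 at 2.02-fold were the extremes. The untreated library was the lowest for 22 of the 38 (57.9%, against 34.2% of all genes), and the PBS library was the highest for 17 (44.7%, against 20.2%). E. coli was the lowest library for 11 (28.9%, against 21.4% of all genes).

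**Figure D2:**
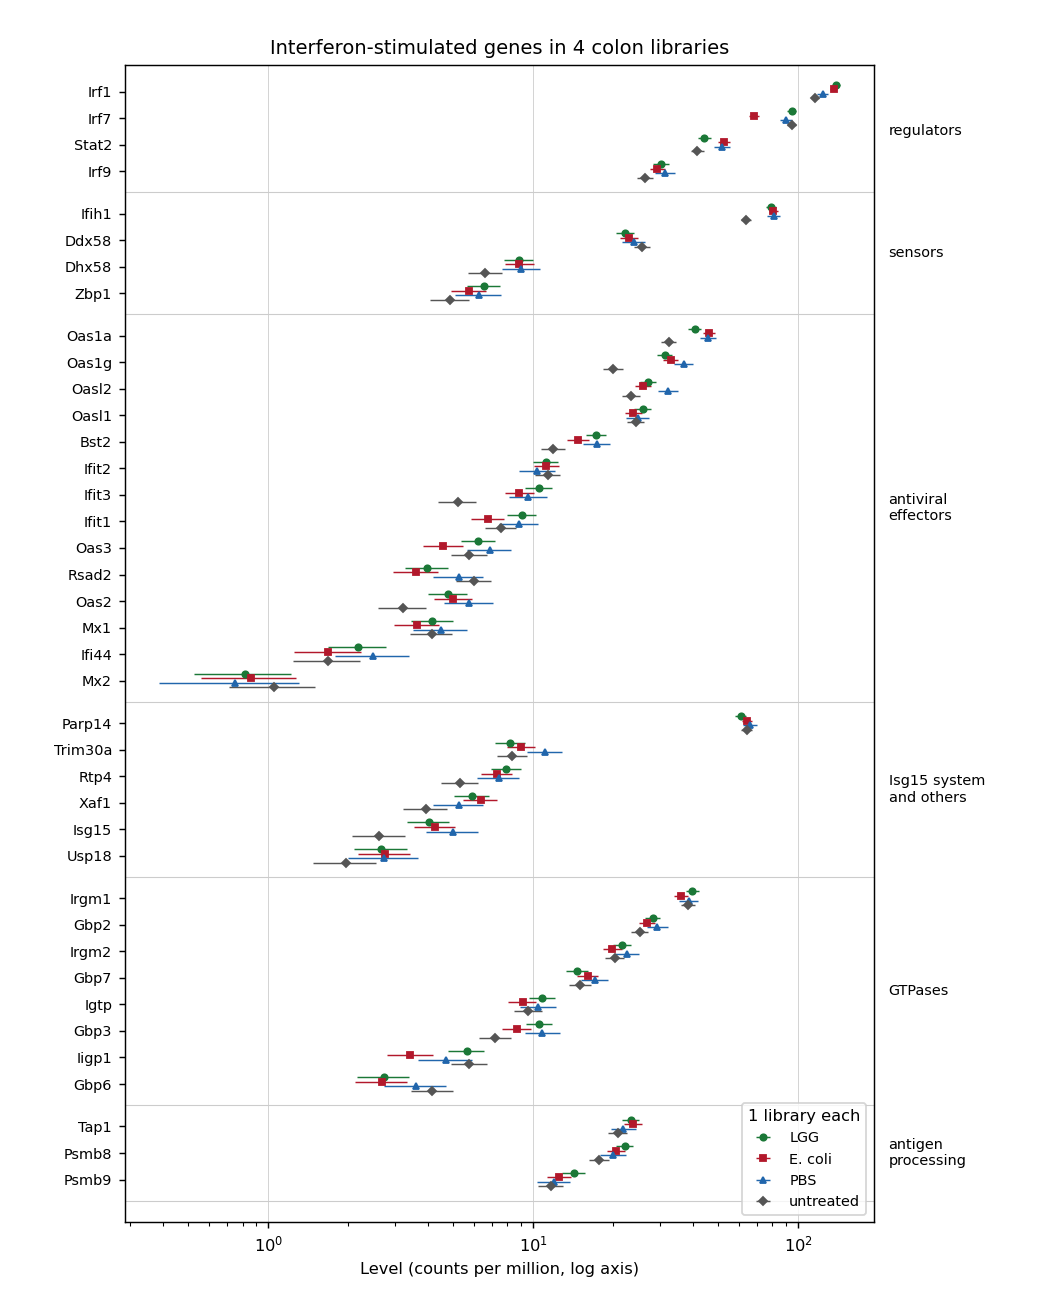
Levels of the 39 interferon-stimulated genes in CPM (log axis) in the LGG, E. coli, PBS and untreated libraries, grouped by role; points are 1 library each and bars are 95% counting intervals. The untreated point stands left of the others for genes such as Ifit3, Oas1g and Isg15, and the E. coli point stands left for Irf7.

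Against the untreated library, the gavaged libraries had most interferon-stimulated genes at a slightly higher level. The median log2 ratio of the 38 genes was 0.21 for LGG, 0.13 for E. coli and 0.24 for PBS, against 0.00 for all genes in each comparison, and 30, 25 and 32 of the 38 ratios were above 0. These comparisons share the untreated library, so they do not support each other. With library totals in place of the scaling factors the medians were 0.11 (LGG), 0.048 (E. coli) and 0.15 (PBS), against -0.10, -0.08 and -0.09 for all genes. B cell markers were lowest in the same library, at 38.8 (LGG), 47.0 (E. coli), 43.1 (PBS) and 24.1 CPM (untreated) in sum, and their part in these ratios was not tested. Epithelial markers had medians close to those of the interferon-stimulated genes, at 0.25 (LGG), 0.17 (E. coli) and 0.21 (PBS) over 9 markers, of which 8, 7 and 6 were higher by the interval, and their part was not tested either. For LGG, 1 gene was at least 2-fold higher with an interval that excludes 0 (Ifit3, with 0.457% of all genes called higher), 3 were at least 1.5-fold higher (1.64% of all genes) and 2 at least 1.5-fold lower (3.63%). Ifit3 was under 2-fold with library totals or with a prior of 5 counts, and 3 genes in all were then past 1.5-fold. For E. coli, none was past 2-fold (2.35% of all genes in either direction), 5 were at least 1.5-fold higher (2.82%) and 3 at least 1.5-fold lower (5.48%). For PBS, none was past 2-fold (1.45%), 5 were at least 1.5-fold higher (2.36%) and none was 1.5-fold lower (3.52%). Counted by the interval alone, 19 were higher and 3 lower for LGG (24.7% and 23% of all genes), 16 and 5 for E. coli (24.9% and 22.4%), and 16 and none for PBS (20.3% and 18.3%). In each of these comparisons the share higher stood above its background, and the share lower stood under it. At 1.5-fold the shares lower for LGG and E. coli were close to their background.

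Against PBS, the control for gavage, neither bacterial library had an interferon-stimulated gene past 1.5-fold in either direction (1.57% of all genes for LGG and 1.47% for E. coli) or past 2-fold (0.277% and 0.415%). The median log2 ratio of the 38 genes was -0.04 for LGG, with 15 above 0, and -0.12 for E. coli, with 9 above 0, against 0.00 for all genes. By the interval alone, 1 gene was higher and 6 lower in LGG (14.3% and 13.1% of all genes), and 1 higher and 9 lower in E. coli (10% and 8.93%). For E. coli the 9 lower genes of 38 stood above that background, and for LGG the 6 lower genes stood close to it. In both, the share higher, 1 of 38, stood under its background. These comparisons share the PBS library, which had the fewest counts. Between the bacteria, LGG against E. coli gave a median of 0.07 with 23 of 38 above 0, with 8 genes higher and 2 lower by the interval (16.4% and 16.2% of all genes). Here the share higher stood somewhat above its background and the share lower under it. None was past 2-fold (0.36%), 1 was at least 1.5-fold higher (1.34%), which was Iigp1, and none was 1.5-fold lower (0.851%).

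**Figure D3:**
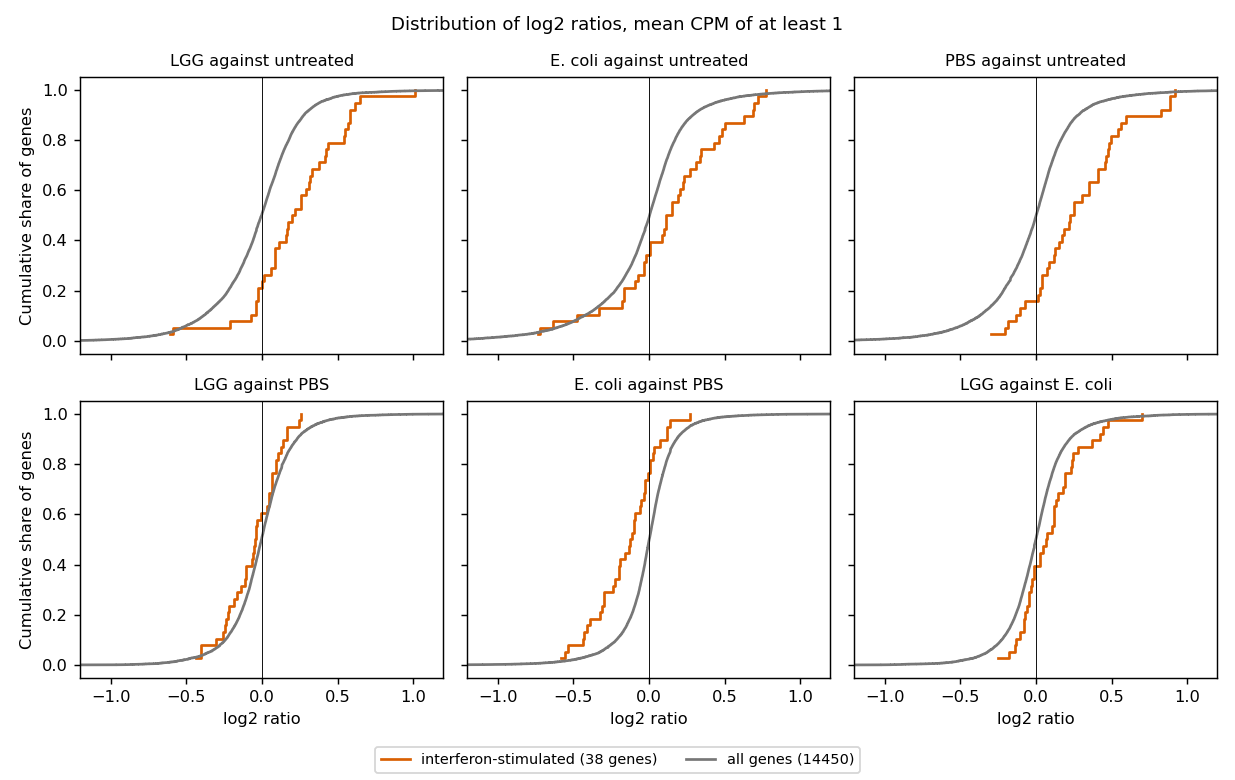
Cumulative share of genes by log2 ratio for 38 interferon-stimulated genes (orange) and 14450 genes (grey) in 6 pairs of libraries. The orange curves lie right of the grey ones against the untreated library, with medians of 0.21 (LGG), 0.13 (E. coli) and 0.24 (PBS), and left of it for E. coli against PBS (-0.12).

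Among the regulators, Irf7 set the E. coli library apart. Irf7, the transcription factor that amplifies interferon production, had 94.7 (LGG), 68.1 (E. coli), 90.2 (PBS) and 94.7 CPM (untreated). The E. coli interval overlapped none of the other 3, which overlapped each other. Its log2 ratio was -0.41 for E. coli against PBS (interval -0.50 to -0.31), -0.48 for E. coli against untreated and 0.48 for LGG against E. coli (0.39 to 0.56). Irf1, a factor of the interferon gamma response, had 139 (LGG), 136 (E. coli), 124 (PBS) and 116 CPM (untreated). The 2 bacterial libraries overlapped each other and stood above the other pair, with log2 ratios against PBS of 0.17 for LGG (0.09 to 0.25) and 0.14 for E. coli (0.06 to 0.22). The ratio of Irf1 in PBS against untreated was 0.09 and turned to -0.001 when library totals replaced the scaling factors.

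Stat2 and Irf9 encode parts of the complex that binds the ISRE. Stat2 had 44.3 (LGG), 52.6 (E. coli), 51.6 (PBS) and 41.7 CPM (untreated), so that E. coli and PBS stood above LGG and untreated without overlap. Its log2 ratio was -0.22 for LGG against PBS (-0.35 to -0.09), 0.03 for E. coli against PBS and -0.25 for LGG against E. coli (-0.36 to -0.14). Irf9 had 30.4 (LGG), 29.5 (E. coli), 31.5 (PBS) and 26.5 CPM (untreated), with log2 ratios against untreated of 0.20, 0.15 and 0.25 for LGG, E. coli and PBS. The untreated library was the lowest, although its interval overlapped those of both bacterial libraries.

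The sensors divided by gene. Ifih1, which encodes the sensor MDA5 for long double-stranded RNA, had 78.9 (LGG), 80.6 (E. coli), 81.0 (PBS) and 63.6 CPM (untreated). The gavaged libraries overlapped each other and stood above the untreated one, at log2 ratios of 0.31 (LGG), 0.34 (E. coli) and 0.35 (PBS). Ddx58, which encodes the sensor RIG-I, had 22.3 (LGG), 22.997 (E. coli), 24.0 (PBS) and 25.8 CPM (untreated). Here the untreated library was the highest but all intervals overlapped, and the log2 ratios against it were -0.21 for LGG (-0.36 to -0.05), -0.17 for E. coli (-0.32 to -0.01) and -0.10 for PBS. Dhx58, the helicase LGP2 that modulates these sensors, had 8.82 (LGG), 8.88 (E. coli), 9.04 (PBS) and 6.59 CPM (untreated), and its untreated interval overlapped none of the others. Zbp1, a sensor of Z-form nucleic acid, had 6.53 (LGG), 5.71 (E. coli), 6.23 (PBS) and 4.87 CPM (untreated). All CPM intervals of Zbp1 overlapped, and its ratio against untreated had an interval that excludes 0 only for LGG (0.42, 0.10 to 0.75).

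Of the antiviral effectors, Ifit3, Oas1g and Oas2 gave the highest ratios against the untreated library. Ifit3, an antiviral member of the Ifit family, had 10.5 (LGG), 8.88 (E. coli), 9.60 (PBS) and 5.19 CPM (untreated). The untreated library did not overlap any other, and its gavaged counterparts overlapped each other, at log2 ratios of 1.01 for LGG (0.73 to 1.31), 0.77 for E. coli (0.48 to 1.08) and 0.89 for PBS (0.55 to 1.22). Its neighbours in the table, Ifit1 and Ifit2, did not follow it. Ifit1 had 9.06 (LGG), 6.75 (E. coli), 8.85 (PBS) and 7.57 CPM (untreated), lowest in E. coli, at a log2 ratio against PBS of -0.39 (-0.71 to -0.07). Ifit2 had 11.1 (LGG), 11.2 (E. coli), 10.3 (PBS) and 11.4 CPM (untreated), with all intervals overlapping.

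The Oas genes encode synthetases of short oligoadenylates, which activate the RNA-degrading enzyme RNase L, and Oas1g, Oas1a, Oas2 and Oas3 are neighbours on chromosome 5. Oas1g (NM_011852, chr5:121326151-121337607 in mm9, minus strand) had 31.4 (LGG), 33.1 (E. coli), 37.0 (PBS) and 20.0 CPM (untreated). The untreated library was far below the rest, at log2 ratios of 0.65 for LGG (0.50 to 0.80), 0.72 for E. coli (0.57 to 0.88) and 0.88 for PBS (0.72 to 1.05). Oas1a had 40.8 (LGG), 46.1 (E. coli), 45.7 (PBS) and 32.4 CPM (untreated), at log2 ratios against untreated of 0.33, 0.51 and 0.50. Oas2 had 4.78 (LGG), 4.99 (E. coli), 5.73 (PBS) and 3.22 CPM (untreated), at log2 ratios of 0.57, 0.63 and 0.83, and its untreated interval overlapped none of the other 3. Oas3 had 6.22 (LGG), 4.58 (E. coli), 6.85 (PBS) and 5.75 CPM (untreated), with the E. coli library lowest, at -0.58 against PBS (-0.96 to -0.20). Reads of the Oas1 genes, of the Ifit genes and of other close copies in the list (Oasl1 and Oasl2, Gbp6 with its unlisted copy Gbp10, Trim30a, Igtp and the Irgm genes) may be split between copies, so these levels are uncertain.

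Rsad2, which encodes viperin, ran the other way from Ifit3. Rsad2 (NM_021384) had 3.96 (LGG), 3.61 (E. coli), 5.23 (PBS) and 5.96 CPM (untreated). Untreated was the highest and overlapped PBS but neither bacterial library, with log2 ratios against untreated of -0.59 for LGG (-0.94 to -0.24), -0.72 for E. coli (-1.09 to -0.36) and -0.19 for PBS. Bst2, the tetherin that holds budding virions on the cell surface, had 17.3 (LGG), 14.8 (E. coli), 17.4 (PBS) and 11.9 CPM (untreated), and the untreated interval overlapped none of the others, at log2 ratios of 0.54, 0.31 and 0.54. The dynamin-like GTPase genes Mx1 and Mx2 had intervals that overlapped in all libraries, at 4.17 and 0.820 CPM (LGG), 3.65 and 0.861 CPM (E. coli), 4.49 and 0.748 CPM (PBS) and 4.13 and 1.05 CPM (untreated). Oasl2 was highest in PBS (32.3 CPM) and lowest in the untreated library (23.4 CPM), while Oasl1 and Ifi44 had overlapping intervals in all libraries. Over the 13 effectors with a mean of at least 1 CPM the median log2 ratio was 0.26 for LGG, 0.00 for E. coli and 0.46 for PBS against untreated, and -0.14 for LGG and -0.24 for E. coli against PBS. The E. coli median against untreated was -0.08 with library totals and -0.004 with upper-quartile factors.

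Isg15 encodes a ubiquitin-like modifier, and Usp18 the protease that removes it. Isg15 (NM_015783, chr4:155573533-155574927 in mm9, minus strand) had 4.03 (LGG), 4.27 (E. coli), 4.99 (PBS) and 2.63 CPM (untreated), from 118, 124, 80 and 75 counts. The untreated library overlapped none of the others, at log2 ratios of 0.61 for LGG (0.19 to 1.06), 0.70 for E. coli (0.28 to 1.13) and 0.92 for PBS (0.45 to 1.40). Xaf1, a pro-apoptotic factor, had 5.88 (LGG), 6.33 (E. coli), 5.23 (PBS) and 3.92 CPM (untreated), with both bacterial libraries above the untreated one without overlap, at 0.58 and 0.69. Rtp4 had 7.93 (LGG), 7.30 (E. coli), 7.42 (PBS) and 5.29 CPM (untreated), again lowest without treatment. Trim30a, a TRIM-family regulator, was highest in PBS, with 8.20 (LGG), 9.02 (E. coli), 11.1 (PBS) and 8.34 CPM (untreated), and its log2 ratio against PBS was -0.43 for LGG (-0.72 to -0.15) and -0.30 for E. coli (-0.58 to -0.02). Parp14, an ADP-ribosyltransferase, varied least of all 38 genes, with 60.8 (LGG), 64.2 (E. coli), 65.7 (PBS) and 63.9 CPM (untreated), and the intervals of Usp18 overlapped in all libraries.

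The GTPases, which act against pathogens inside vacuoles and in the cytosol, were mixed. Gbp3 had 10.5 (LGG), 8.68 (E. coli), 10.8 (PBS) and 7.18 CPM (untreated), with LGG and PBS above untreated without overlap, at log2 ratios of 0.55 and 0.59 and, for E. coli, 0.27. Gbp6 had 2.73 (LGG), 2.69 (E. coli), 3.61 (PBS) and 4.17 CPM (untreated), so that both bacterial libraries were below untreated without overlap, at -0.61 and -0.63. Iigp1 (NM_001146275), an immunity-related GTPase, had 5.60 (LGG), 3.44 (E. coli), 4.67 (PBS) and 5.75 CPM (untreated). Only the E. coli library stood apart from LGG and untreated, at log2 ratios of 0.70 for LGG against E. coli (0.34 to 1.08) and -0.74 for E. coli against untreated (-1.11 to -0.37), while its interval overlapped that of PBS. The GTPase genes with the most counts, Irgm1 and Gbp2, differed less. Irgm1 had 39.9 (LGG), 36.0 (E. coli), 38.6 (PBS) and 38.3 CPM (untreated), and Gbp2 had 28.2 (LGG), 26.9 (E. coli), 29.4 (PBS) and 25.3 CPM (untreated), with all CPM intervals of each overlapping. The interval of the log2 ratio nevertheless excluded 0 for Irgm1 in LGG against E. coli (0.15, 0.03 to 0.27) and for Gbp2 in LGG against untreated (0.16, 0.01 to 0.30) and PBS against untreated (0.22, 0.05 to 0.39). Against PBS all 8 GTPases had a ratio below 0 in E. coli (median -0.19), as did 7123 of 14450 genes. Of the 8, Gbp3 had an interval that excludes 0, a share near the 8.93% of all genes called lower.

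Antigen processing genes had their highest levels in the bacterial libraries. Psmb8, a catalytic subunit of the immunoproteasome, had 22.1 (LGG), 20.6 (E. coli), 20.1 (PBS) and 17.8 CPM (untreated), and its LGG interval stood above the untreated one, at a log2 ratio of 0.32 (0.15 to 0.49). Tap1, a peptide transporter subunit, had 23.4 (LGG), 23.8 (E. coli), 21.9 (PBS) and 20.8 CPM (untreated). Its CPM intervals overlapped, while the intervals of its log2 ratio against untreated excluded 0 for LGG (0.17, 0.005 to 0.33) and E. coli (0.19, 0.03 to 0.35). Psmb9, whose gene lies beside Tap1 on chromosome 17 in the deposited coordinates, had 14.2 (LGG), 12.6 (E. coli), 12.0 (PBS) and 11.6 CPM (untreated). The 3 genes summed to 59.7 (LGG), 56.9 (E. coli), 54.0 (PBS) and 50.3 CPM (untreated), and their median log2 ratio was 0.29 for LGG, 0.19 for E. coli and 0.07 for PBS against untreated, the last of which was -0.02 with library totals. Against PBS the median was 0.14 for LGG and 0.07 for E. coli, and none of the 3 genes had an interval that excludes 0 in either.

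**Figure D4:**
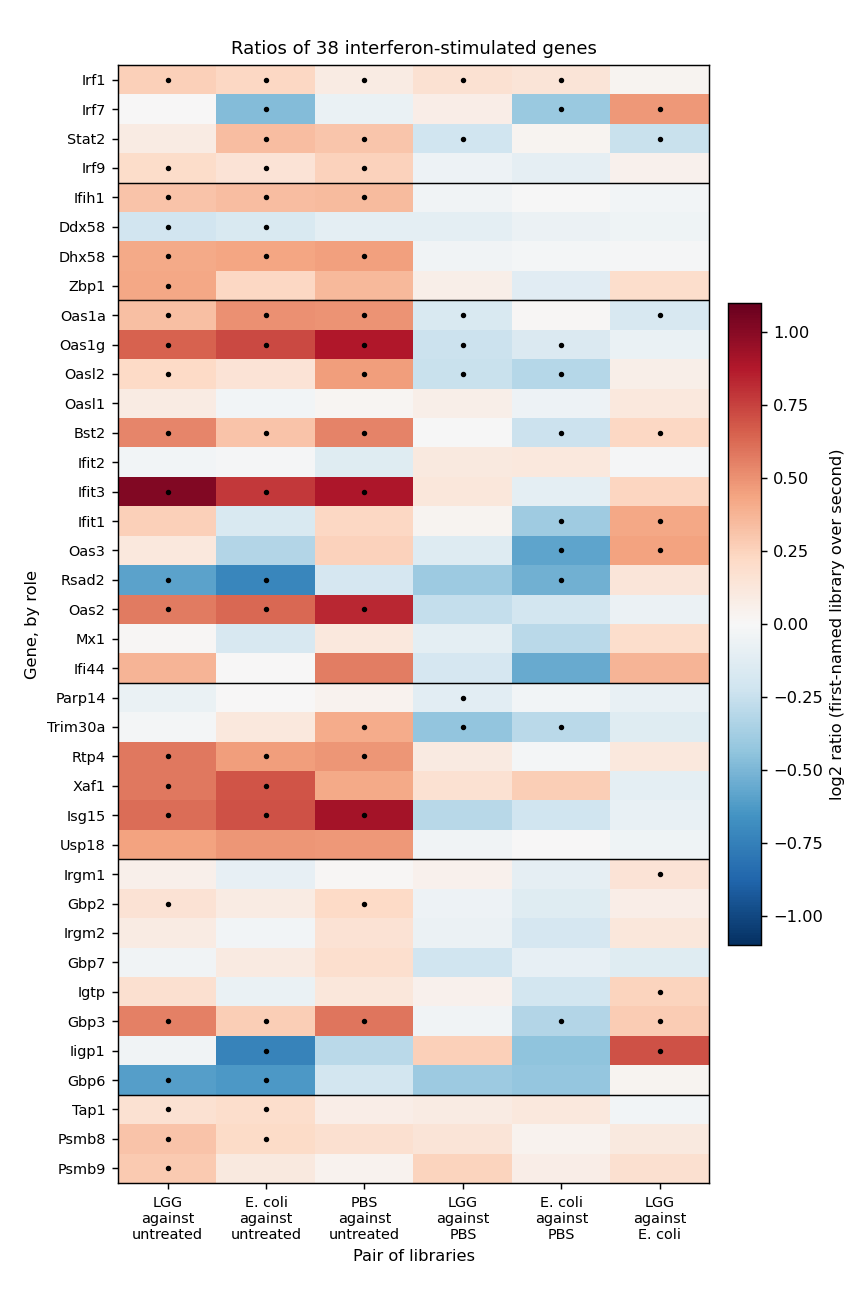
Log2 ratios of 38 interferon-stimulated genes (rows, by role) in 6 pairs of libraries (columns), with the first-named library over the second; a dot marks a counting interval that excludes 0. Red prevails in the columns against untreated, with Ifit3 at 1.01 for LGG, and the strongest blue cells there are Iigp1, Rsad2 and Gbp6 for E. coli.

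Genes with and without an ISRE core in the window were also set side by side. In PBS against untreated the median log2 ratio was 0.28 for the 18 with a core and 0.09 for the 11 without, and in E. coli against PBS it was -0.17 and 0.03. In LGG against PBS it was -0.09 and 0.09, in LGG against untreated 0.17 and 0.22, and in E. coli against untreated 0.11 and 0.15. Between the bacterial libraries, LGG over E. coli, the medians were 0.10 with a core and 0.07 without. The order of these medians was thus not the same in each comparison, and genes with a core differed from each other, as did Rsad2 at -0.72 and Oas1g at 0.72 for E. coli against untreated.

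Upstream of these genes, the interferon genes themselves were barely detected. Of 21 interferon ligand genes in the table, 18 (LGG), 20 (E. coli), 21 (PBS) and 20 (untreated) had no count after rounding, and the list summed to 3, 1, 0 and 1 counts. None of the 6 receptor genes was past 1.5-fold in any comparison, which in lists this short is no departure from the background (1.57% of all genes in either direction for LGG and 1.47% for E. coli against PBS, and 0.851% to 5.48% in 1 direction for the other pairs). Ifngr1 and Ifngr2, the subunits of the interferon gamma receptor, had the most counts among them. Ifngr2 had 183 (LGG), 174 (E. coli), 166 (PBS) and 146 CPM (untreated), and Ifngr1 had 314 (LGG), 321 (E. coli), 308 (PBS) and 274 CPM (untreated). Both were lowest without treatment. None of the 10 signalling genes was past 1.5-fold either, with the same background, and Jak1 and Stat3, a kinase and a transcription factor, had the most counts, at 151 and 146 CPM (LGG), 161 and 160.4 CPM (E. coli), 161 and 164 CPM (PBS) and 155 and 146 CPM (untreated). Of 15 genes that lead to interferon production, Tlr9, a sensor of unmethylated CpG DNA, was past 1.5-fold, with 1.30 (LGG), 1.72 (E. coli), 2.37 (PBS) and 1.40 CPM (untreated), at log2 ratios of -0.86 for LGG against PBS (1.57% of all genes past 1.5-fold in either direction) and 0.75 for PBS against untreated (2.36% higher).

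Markers of the cell types in a colon piece also differed between libraries. All 7 B cell markers were higher in the LGG, E. coli and PBS libraries than in the untreated library, with intervals that exclude 0, and none was at 0. Plasma cell markers summed to 235 (LGG), 226 (E. coli), 238 (PBS) and 198 CPM (untreated). Both lists were lowest in sum in the library in which 22 of the 38 interferon-stimulated genes were lowest, and the part of plasma cells in the ratios was not tested. Of the 5 plasma cell markers with a mean of at least 1 CPM, 4 had ratios above 0 in each gavaged library. Prdm1 went the other way, at log2 ratios against untreated of -0.71 (LGG), -0.33 (E. coli) and -0.58 (PBS). Macrophage and monocyte markers summed to 154 (LGG), 157 (E. coli), 157 (PBS) and 167 CPM (untreated), and T cell markers to 21.7 (LGG), 23.8 (E. coli), 25.5 (PBS) and 28.2 CPM (untreated), both highest without treatment. Their members did not all follow. Against untreated, 3 of 10 macrophage ratios were above 0 in each gavaged library, as were 1 (LGG), 2 (E. coli) and 2 (PBS) of 4 T cell ratios. By the interval, Cd68 was higher in E. coli and PBS, and Cd4 in E. coli. Siglech, the defining marker of plasmacytoid dendritic cells, had 15 (LGG), 12 (E. coli), 8 (PBS) and 16 counts (untreated), Cox6a2 was at 0 outside the LGG library, and the sum of that list (993, 958, 901 and 883 CPM in the same order of libraries) came almost wholly from Klk1, at 958, 926, 870 and 845 CPM. Neutrophil markers (2.02, 2.31, 2.12 and 1.96 CPM) and natural killer cell markers (1.88, 1.86, 2.68 and 2.10 CPM) were low, and S100a8, S100a9, Retnlg and Ngp were each at 0 in at least 1 library. Pancreatic acinar markers, which a colon piece should lack, summed to 34.8 (LGG), 63.8 (E. coli), 17.5 (PBS) and 1.51 CPM (untreated), and all 8 were higher in LGG and E. coli than in PBS and higher in PBS than in the untreated library, and their part in the ratios was not tested. Conventional dendritic cell markers summed to 13.7 (LGG), 16.2 (E. coli), 15.1 (PBS) and 14.0 CPM (untreated). Endothelial (147 to 181 CPM), fibroblast (1196 to 1429 CPM), smooth muscle (10166 to 12044 CPM), mesothelial (10.3 to 30.1 CPM), adipocyte (71.8 to 151 CPM) and erythroid markers (20.5 to 41.7 CPM) had their highest sum in the untreated library. The adipocyte sums of LGG (149.7 CPM) and untreated (150.6 CPM) had overlapping intervals. Against untreated, some of these lists were split by the interval. In LGG, 2 adipocyte markers were higher and 1 lower, and 3 smooth muscle markers were higher and 3 lower. In PBS, 2 smooth muscle markers were higher and 4 lower, and in E. coli 2 fibroblast markers were higher and 3 lower.

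**Figure D5:**
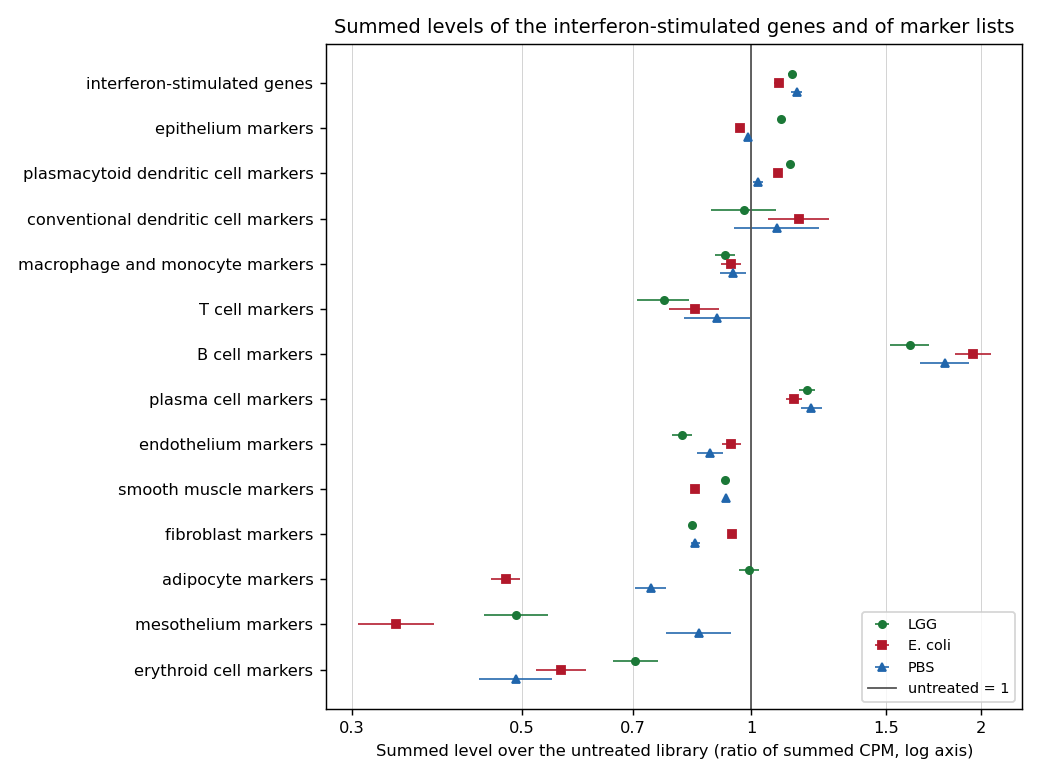
Summed levels in CPM of the interferon-stimulated genes and of marker lists in the LGG, E. coli and PBS libraries over the untreated library (log axis); bars cover the counting error of the gavaged library only. The interferon-stimulated sums are 904, 868 and 918 CPM against 800.0, and the B cell sums lie farther right, at 38.8, 47.0 and 43.1 CPM against 24.1. The neutrophil, natural killer cell and pancreatic acinar lists are not drawn, the last with sums of 34.8, 63.8 and 17.5 CPM against 1.51.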

How the data were processed

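The authors deposited a table of expected counts per gene and library, made with TopHat2 and HOMER on mouse build mm9 per the submitters' processing notes; the sources used here give no versions, no role of each tool and no use of strand. Counts came in steps of 0.5, of unstated origin, and were rounded to whole numbers. Library sizes were scaled by trimmed means of M-values (edgeR 4.0.16, R 4.3.3). CPM, log2 ratios (prior of 0.5 counts scaled to library size), Clopper-Pearson intervals of each pair of counts (95%) and Poisson intervals of each CPM were computed in Python 3.11.15 (numpy 2.4.6, scipy 1.17.1, pandas 2.3.3) and drawn with matplotlib 3.10.9. A gene was called at 2-fold or 1.5-fold when the ratio reached that size, its interval excluded 0 and its mean CPM was at least 1, or by the interval alone at that mean. The floor of a 0 was 3 counts. Libraries were made by PCR without molecular identifiers, and a read is therefore not an independent molecule: intervals and floors cover counting error only. No p-value is given, because each condition had 1 library.

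Ratios were fitted on all genes in 6 pairs of libraries, and the calculation was tested on simulated counts. The members, the 5 pathway lists (interferon ligands, receptors, signalling, induction, other induced genes) and the 16 marker lists were chosen with earlier results of these data known. Named in full were the 4 regulators, the 2 most abundant members of each role, and every member past 1.5-fold, and from the pathway lists up to 4 genes past 1.5-fold or the 2 most abundant; other genes were named after their values were seen. Of 119 pathway symbols 113 were in the table. Alternatives were DESeq2 1.42.0 size factors, library totals, upper-quartile factors, no filter, a stricter filter (mean CPM of 5), a larger prior (5 counts) and counts left unrounded. They were applied to the counts by interval only after seeing the data. Gene coordinates are mm9 as listed in the table, promoter coordinates are GRCm38.p6 from RefSeq, and levels per kilobase use the listed transcript length.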

Additional observations from a re-analysis of the deposited data

How the results depend on the processing

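No paired analysis was possible because each condition had 1 library. Scaling by library totals moved the median log2 ratio of all genes against the untreated library to -0.10 for LGG, -0.08 for E. coli and -0.09 for PBS. The median of the interferon-stimulated genes was then 0.11 for LGG, 0.048 for E. coli and 0.15 for PBS, against 0.21, 0.13 and 0.24 before, so each stayed above the median of all genes. Library totals also left 0 genes at 2-fold and 3 at 1.5-fold in LGG against untreated, where 1 and 5 were called, gave 5 lower genes by the interval in place of 3 there and 2 in place of 0 in PBS against untreated, and gave Irf1 a log2 ratio of -0.001 in place of 0.09 in PBS against untreated. A prior of 5 counts left 0 genes at 2-fold and 3 at 1.5-fold in LGG against untreated. A mean CPM of at least 5 left, at 1.5-fold, 2 genes for LGG, 3 for E. coli and 3 for PBS against untreated, where 5, 8 and 5 were called, and 0 in LGG against E. coli, where 1 was. By the interval it left 1 lower gene in place of 3 for LGG and 2 in place of 5 for E. coli against untreated. This is because fewer genes passed the filter. The 1.5-fold calls lost against untreated were Isg15 (mean of 3.98 CPM), Oas2 (4.68), Rsad2 (4.69), Gbp6 (3.30) and Iigp1 (4.87). The shares of all genes called under the alternatives are not given, so these counts have no background of their own. DESeq2 size factors gave 2 higher genes by the interval in place of 1 in LGG against PBS. Among the recomputed ratios of named genes, 654 moved by less than their counting error, 5 moved further, all with library totals, and 1 turned sign. The depth of 75 counts for Isg15 and 12 for Mx2 limits what their ratios can show, and the PBS library, with the fewest counts, has the widest intervals.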

Other observations

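Other genes known to be induced by interferons, 61 in the table and 51 with a mean of at least 1 CPM, were not among the 39. Against the untreated library their median log2 ratio was 0.10 for LGG, 0.11 for E. coli and 0.13 for PBS, with 36, 39 and 41 of the 51 above 0, against a median of 0.00 and 49.7%, 51.0% and 50.3% above 0 for all genes. At 1.5-fold, 2 were higher and 1 lower for LGG (1.64% and 3.63% of all genes), 4 higher for E. coli (2.82%) and 6 higher for PBS (2.36%). By the interval alone, 18 were higher and 6 lower for LGG (24.7% and 23% of all genes). For E. coli these were 20 and 4 (24.9% and 22.4%), and for PBS 22 and 2 (20.3% and 18.3%). Those lower in LGG were Ifi47, Cmpk2, Gbp9, Lgals3bp, Helz2 and Slfn9, and Cmpk2 was lower in each gavaged library. Against PBS none was past 1.5-fold in LGG (1.57% of all genes in either direction) and 1 was lower in E. coli (1.47%). Ifitm1, a membrane protein that blocks viral entry, had 14.5 (LGG), 12.7 (E. coli), 13.5 (PBS) and 7.50 CPM (untreated), at log2 ratios against untreated of 0.95, 0.76 and 0.84. Cxcl10, a chemokine that attracts T cells, had 1.71 (LGG), 1.17 (E. coli), 1.62 (PBS) and 0.771 CPM (untreated). Slfn2 had 7.86 (LGG), 10.7 (E. coli), 11.0 (PBS) and 6.62 CPM (untreated), and Ciita, the activator of class II antigen presentation genes, had 5.30 (LGG), 6.92 (E. coli), 6.17 (PBS) and 4.13 CPM (untreated). B cells also express Ciita, and the B cell markers were lowest in the untreated library as well. The part of B cells in the Ciita levels was not tested.

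The class I antigen presentation genes H2-K1 and H2-D1, which display peptides to T cells, were lowest in the untreated library. H2-K1 had 977 (LGG), 888 (E. coli), 912 (PBS) and 749 CPM (untreated), at log2 ratios against untreated of 0.38, 0.25 and 0.28. H2-D1 had 699 (LGG), 637 (E. coli), 647 (PBS) and 543 CPM (untreated), at 0.36, 0.23 and 0.25. Both were highest in LGG, at log2 ratios of 0.14 and 0.13 for LGG against E. coli. Reads of class I genes, which resemble each other closely, may be split between copies. These genes were chosen after their values were seen, apart from Ifitm1, Cxcl10, Slfn2 and Ciita.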
